A study of Arabidopsis thaliana with 6 samples.

Results

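EXO (EXORDIUM, AT4G08950) and AT2G33850 were described in leaf stalks (petioles) of Arabidopsis thaliana grown in a dense canopy or singly. The choice covered both genes and any gene listed under the symbol EXL followed by a digit, with 1 probe set per gene. No EXL gene was listed in the probe-set annotation used here, so 2 genes were followed of the 13356 genes with a probe set of their own. Each of the 2 genes had 1 such probe set. Both genes were chosen because their values were lower in the canopy, so their difference between the groups is given as a description, without a test.

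The dense canopy group held plants set at 2066 plants per m2 after transfer to pots, and the single group held plants in the same kind of pots kept apart. Both groups were moved to pots after 10 days and grew at 20 °C in 9 h light and 15 h dark. Light was 180 µmol per m2 per s and relative humidity 70%. Harvest was about 23 days after sowing, when the leaf area over a given ground area had reached 0.9 times that area. No genotype is named in the labels. Each group had 3 Affymetrix arrays, and the RNA of each array came from 2 young petioles of each of 4 plants, pooled per biological replicate. The comparison addresses how petiole transcripts differ between neighbours in a canopy and plants without neighbours.

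EXO belongs to the EXORDIUM family of secreted plant proteins. It is known in Arabidopsis as a gene that brassinosteroids, the steroid hormones of plant growth, switch on, and loss of EXO reduces leaf growth through smaller cells. The related gene EXL1, listed as PHI-1 in RefSeq, is known for growth under low carbon supply. Petiole elongation is a well known part of the response of rosette plants to neighbours. AT2G33850 carries only its locus name in the annotations used here, and no role is given to it.

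Both genes were lower in canopy petioles than in petioles of single plants, on every array. EXO had values of 2.43, 2.14 and 1.89 in canopy replicates 1, 2 and 3, against 3.38, 3.30 and 3.52 in single-plant replicates 1, 2 and 3 (RMA values, log2). The highest canopy value lay 0.87 below the lowest single-plant value, and the groups did not overlap. On average EXO had 2.15 ± 0.27 in canopy petioles, against 3.40 ± 0.11 in petioles of single plants (log2, SD, n = 3 each). The difference of -1.25 ± 0.14 (log2, SE) makes EXO 2.37-fold lower in the canopy. In single plants EXO spanned 0.22 and in the canopy 0.54, so the canopy arrays varied more among themselves.

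AT2G33850 had values of 1.38, 1.11 and 0.93 in canopy replicates 1, 2 and 3, against 2.50, 2.64 and 2.17 in single-plant replicates 1, 2 and 3 (RMA values, log2). The groups were again apart, by 0.79 between the highest canopy and the lowest single-plant value. On average AT2G33850 had 1.14 ± 0.23 in canopy petioles, against 2.44 ± 0.24 in petioles of single plants (log2, SD, n = 3 each), a difference of -1.30 ± 0.15 (log2, SE), or 2.45-fold lower in the canopy. Here the canopy arrays spanned 0.45 and the single-plant arrays 0.48, a like spread. The canopy values of AT2G33850 lay near the low end of the scale, at -0.36 to 0.10 relative to the median of their array, where an RMA fold change tends to understate the change. EXO stayed 0.59 to 1.14 above the array median in the canopy and 1.98 to 2.21 above it in single plants. Of all 22746 probe sets tested, 9.3% had groups that did not overlap with the canopy lower, and 0.0659% were at least 2-fold lower. Since both genes were picked for this contrast, these shares only place them.

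**Figure D1:**
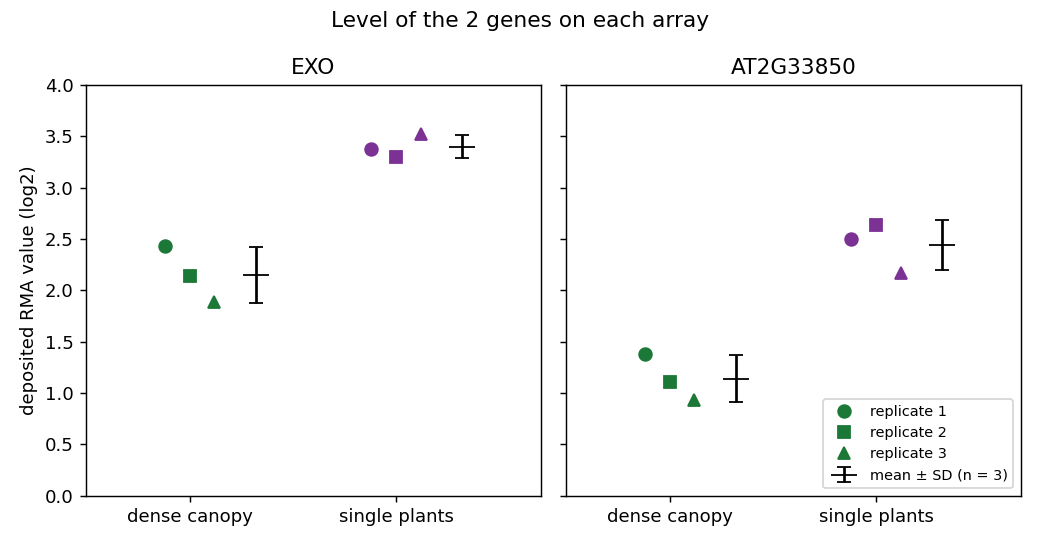
RMA value (log2, vertical axis) of EXO and AT2G33850 on each array, with canopy arrays in green on the left of each panel and single-plant arrays in purple on the right; symbols mark the replicate number and black bars the mean ± SD of 3 arrays. EXO reaches at most 2.43 in the canopy and at least 3.30 in single plants, and AT2G33850 at most 1.38 and at least 2.17.

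As the petioles are bulk samples, fewer cells that express a gene and less RNA per cell cannot be told apart. Across probe sets, Pearson's r was 0.987 to 0.991 for pairs of arrays from different groups and 0.990 to 0.994 for pairs from the same group. Canopy replicate 1 stood apart on the second principal component (20.6% of the variance), where it scored 22.6, the other two canopy arrays scored -8.9 and -15.9 and single-plant arrays scored -1.3 to 4.1. Without it EXO differed by -1.38 and AT2G33850 by -1.42 (log2). The spiked poly-A controls dap, thr and phe, which are added RNAs and not plant transcripts, were lower in the canopy by 0.16 to 0.31 on the log2 scale (two-sided exact permutation p = 0.1 each, the smallest that 3 against 3 arrays allow). The fourth such spike, lys, differed by 0.02 on the log2 scale, at 1.05 ± 0.04 in the canopy arrays and 1.03 ± 0.02 in the single-plant arrays (SD, n = 3 each; two-sided exact permutation p = 0.6). These lys levels lay below the array medians of 1.28 to 1.32, near the low end of the scale, where a shift may not show. With each array set relative to dap, thr and phe, the differences were -1.03 for EXO and -1.08 for AT2G33850, and with lys included -1.09 and -1.14. Green-tissue genes were abundant: PSBW, of photosystem II, averaged 9.02 in canopy and 8.93 in single-plant petioles, and ATPC1, of the chloroplast ATP synthase, at 9.23 and 9.05. Of the other marker lists, 2 of 3 anther genes, 2 of 3 root genes, 2 of 4 guard-cell genes and 1 of 3 meristem genes could be followed. A9 and AMS of the anther list were at 0.65 to 0.78 in both groups, EXPA7 and EXPA18 of the root list at 0.86 to 1.1, and CLV3 of the meristem at 0.66 in canopy and 0.78 in single-plant petioles. The guard-cell gene FAMA was at 1.49 in canopy and 1.28 in single-plant petioles, and SPCH, of the same lineage, at 0.70 and 0.85. None of these 9 marker genes passed the limma test (adjusted p of 0.47 to 0.98). Of all 22746 probe sets only 0.677% passed, so this count gives no measure of tissue make-up. Summed over the list, the 2 guard-cell genes ran from 1.97 to 2.45 in the canopy and 1.94 to 2.38 in single plants (log2 units). This sum joins genes of opposite sign. FAMA overlapped, while SPCH was apart in the direction of EXO, at 0.63 to 0.76 in the canopy and 0.78 to 0.99 in single plants. SPCH lay below the array medians on every array. The 2 root genes ran from 1.79 to 1.93 in the canopy and 2.00 to 2.28 in single plants, apart in the direction of EXO. Both lay below the array medians of 1.28 to 1.32 on every array, near the low end of the scale. Taken singly, EXPA7 was apart and EXPA18 overlapped. Of all probe sets, 9.3% were apart with the canopy lower. The part of the root genes and of SPCH in the result was not tested. The 3′ minus 5′ difference of actin controls, a sign of RNA quality, was 3.21 ± 0.12 in canopy and 3.49 ± 0.18 in single-plant samples (log2, SD, n = 3 each; two-sided exact permutation p = 0.2). No phloem, xylem or epidermis marker of the lists could be followed.

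The differences of the pair had nearly the same size in RMA values. The canopy values of AT2G33850 lay near the low end of the scale and those of EXO did not, so the underlying changes may differ in size. Relative to the single-plant mean, EXO stood at -0.97, -1.25 and -1.51 and AT2G33850 at -1.05, -1.33 and -1.50 in canopy replicates 1, 2 and 3 (log2). Canopy replicate 1 was thus the least lowered and canopy replicate 3 the most lowered for both genes. In single plants their deviations were opposite in sign on every array, at -0.02, -0.10 and 0.12 for EXO and 0.06, 0.21 and -0.27 for AT2G33850 in replicates 1, 2 and 3. EXO was highest in single replicate 3, where AT2G33850 was lowest. Over the 6 arrays the genes correlated at r = 0.952, a value that mostly carries the gap between the groups. It lay between 0.929 and 0.990 when any 1 array was left out. The canopy order itself is common. Of the 4038 probe sets above the median level whose canopy values span at least 0.4, 20.1% were highest in canopy replicate 1 and lowest in replicate 3, and 20.3% the other way round.

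By Pearson's r over the 6 arrays, among 5982 genes with a mean level above the median, 173 genes (2.89%) followed EXO at r over 0.9 and 133 (2.22%) followed AT2G33850. For EXO the most alike were AT5G07030 (r = 0.997), AT1G19485 (0.995), AT4G26230 (0.994), AT5G46420 (0.983) and AT1G43995 (0.982). AT5G07030 had values of 4.71, 4.35 and 4.19 in the canopy, against 5.53, 5.42 and 5.54 in single plants (log2), in the same array order as EXO in both groups. Its difference of -1.08 ± 0.13 (log2, SE) came close to that of EXO. The other 4 shared the gap between the groups and the array order of EXO in the canopy, with smaller differences of -0.37, -0.16, -0.37 and -0.12 (log2) in the order given. In single plants the order was not shared by all: AT5G46420 was lowest in replicate 3, where EXO was highest. AT4G26230 moved by only -0.16, at 8.04, 7.99 and 7.98 in the canopy and 8.15, 8.16 and 8.17 in single plants, so a high r here does not mean a large change.

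For AT2G33850 the most alike were AT1G28395 (r = 0.994), AT1G23460 (0.993), AT5G46420 (0.990), AT3G53190 (0.988) and AT4G15930 (0.986). AT3G53190 was at 2.56, 2.28 and 2.01 in the canopy and 3.47, 3.98 and 3.40 in single plants (log2), highest in single replicate 2 as AT2G33850 was. Its difference was -1.33 ± 0.18 (log2, SE). The remaining 4 differed by -0.48, -0.31, -0.37 and -0.26 (log2) in the order given. AT5G46420 was among the 5 most alike for both genes, with 4.66, 4.60 and 4.51 in the canopy against 4.98, 4.99 and 4.93 in single plants. Ranked by likeness, AT2G33850 was number 42 for EXO and EXO number 36 for AT2G33850. The probe sets of AT1G43995 and AT1G23460 can bind related transcripts. These genes were selected by their likeness over the same arrays, so no test is given for them, and 6 arrays in 2 groups allow many genes to reach such values.

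**Figure D2:**
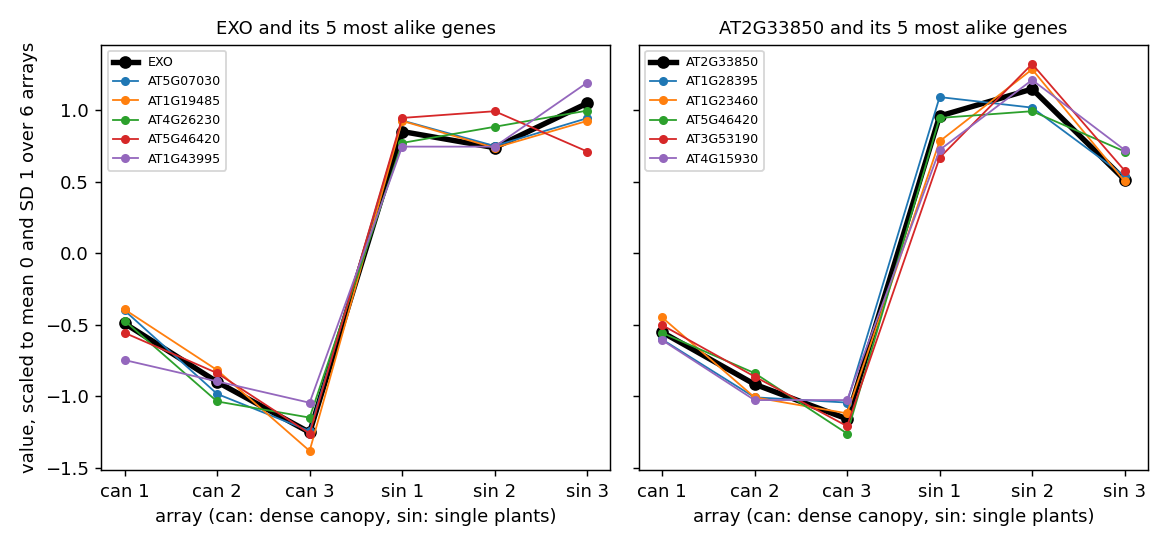
Values of EXO (left panel, black) and AT2G33850 (right panel, black) with the 5 genes of highest Pearson r over the 6 arrays, each gene scaled to mean 0 and SD 1 (vertical axis, no unit), with canopy arrays left of single-plant arrays. The lines only link the points of a gene. All genes lie below 0 in the canopy and above 0 in single plants, and single replicate 3 is the highest single-plant array for EXO and the lowest for AT2G33850.

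The measured genes nearest to EXO and AT2G33850 on the chromosome were not chosen for their values. They were read from the limma fit over all probe sets, in which 0.677% of the 22746 were called at a Benjamini-Hochberg adjusted p under 0.05. Of the 12 measured neighbours, 3 on each side of each gene, none was called (limma adjusted p of 0.49 to 1.0, and 0 at an unadjusted p under 0.05). AT4G08940, AT4G08890, AT4G08880, AT4G08970, AT2G33760 and AT2G34020 had mean levels of 0.70 to 1.08, below the array medians of 1.28 to 1.32. At such levels a decrease may not show, so for these genes the lack of a call says little. AT4G08940 and AT4G08960 are next to EXO, with 0 protein-coding genes between. AT4G08940 was at 1.1, 1.2 and 1.04 in the canopy, against 1.06, 1.08 and 0.99 in single plants (log2), a difference of 0.07 ± 0.09 (SE; limma adjusted p = 0.83). AT4G08960 was at 3.40, 3.04 and 2.72 in the canopy, against 3.15, 3.33 and 3.23 in single plants, a difference of -0.18 ± 0.16 (SE; limma adjusted p = 0.73). Its canopy arrays spread widely and in the same array order as those of EXO, but canopy replicate 1 lay above all single-plant arrays, so the groups overlapped. Without canopy replicate 1 or 3 the difference of AT4G08960 was at the ends of its range of -0.36 to -0.02.

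AT2G33845, the nearest measured gene to AT2G33850 on one side, was at 3.83, 3.53 and 3.43 in the canopy and 3.38, 3.43 and 3.41 in single plants (log2). It differed by 0.19 ± 0.11 (SE; limma adjusted p = 0.59), with a 95% interval of -0.07 to 0.45. On the other side the nearest measured gene, AT2G34020, lay with 8 protein-coding genes between and differed by -0.06 ± 0.10 (log2, SE; limma adjusted p = 0.88). The other 8 measured neighbours, AT4G08890, AT4G08880, AT4G08970, AT4G09040, MBAC1, AT2G33760, AT2G34040 and AT2G34050, differed by -0.25 to 0.16 (log2). Of these, AT4G08970 lay with 1 protein-coding gene between, and the rest were farther off, with 5 to 14 between. The probe set of AT4G08890 can bind related transcripts. MBAC1, a mitochondrial carrier of basic amino acids, averaged 1.74 in canopy and 1.73 in single-plant petioles. The 95% intervals of all 12 ran from -0.55 to 0.52. EXO and AT2G33850 were picked for their difference, so it is no yardstick for these neighbours.

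**Figure D3:**
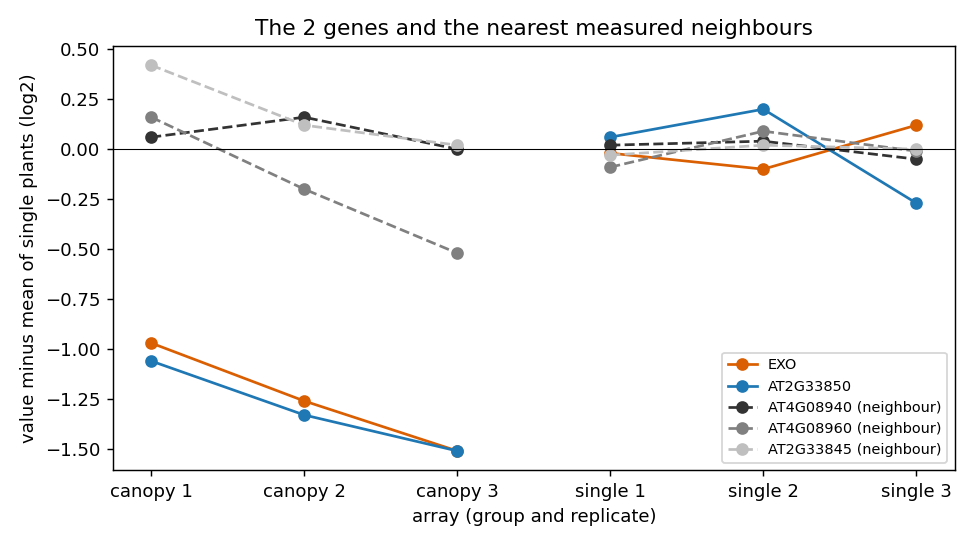
Value minus the mean of the single-plant arrays (log2, vertical axis) on each array for EXO and AT2G33850 (solid) and for the nearest measured neighbours AT4G08940, AT4G08960 and AT2G33845 (dashed); lines only link the points of a gene within a group. The pair lies between -1.51 and -0.97 on the canopy arrays, while AT4G08940 and AT2G33845 stay at or above 0 there and AT4G08960 falls on both sides of it. The level of AT4G08940 is below the array median on every array, where a decrease may not show.

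Of the 8 EXORDIUM family genes, EXO alone had a named probe set. PHI-1 (EXL1), EXL2, EXL3, EXL4, EXL5, EXL6 and EXL7 were not analysed here. The symbol EXL also stands for extracellular lipases, an unrelated family, of which EXL4 and EXL6 are so named in RefSeq and were likewise not analysed. The other 4 loci of the extracellular lipase list could be read, and the annotations used here give them by locus only. AT1G75900 was at 3.57, 3.96 and 4.06 in the canopy and 3.34, 3.37 and 3.34 in single plants (log2). Its groups did not overlap, as in 17% of all probe sets in either direction. It differed by 0.51 ± 0.13 (SE) without passing (limma adjusted p = 0.13). It passed without canopy replicate 1, at a limma adjusted p of 0.034, against 0.034 to 0.32 over the fits that left out 1 array. AT1G75880, AT1G75890 and AT1G75920 had mean levels of 0.77 to 0.86 and differed by at most 0.15 (limma adjusted p of 0.57 to 0.99). Of these, AT1G75920 also had groups that did not overlap.

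In the brassinosteroid pathway the hormone binds receptors of the BRI1 class at the cell surface, and the signal ends at transcription factors such as BES1 and its partners. Of the 26 listed signalling genes, 2 could be followed, and of the 14 genes of brassinosteroid synthesis and inactivation none. Of the 2, 0 passed the limma test in either direction, also at an unadjusted p under 0.05. BRL1, a receptor related to BRI1, was at 0.71, 0.55 and 0.79 in the canopy, against 0.66, 0.73 and 0.82 in single plants (log2), close to the low end of the scale in both groups. BIM1, a transcription factor that partners BES1, was at 4.33, 3.82 and 3.93 in the canopy, against 4.15, 3.95 and 3.89 in single plants. Its difference of 0.03 ± 0.14 (log2, SE; limma adjusted p = 0.97) had a 95% interval of -0.30 to 0.35. These values of 2 genes give no measure of the hormone.

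Of the 14 listed growth genes that brassinosteroids induce, 3 could be followed and 0 passed the limma test, with 1 (XTH19) at an unadjusted p under 0.05. EXPA4, an expansin that loosens cell walls, was at 2.86, 2.91 and 3.03 in the canopy and 2.90, 3.58 and 2.52 in single plants (log2). Its single-plant arrays enclosed all canopy arrays, and the difference was -0.06 ± 0.23 (SE; limma adjusted p = 0.95). EXPA8, of the same family, differed by 0.20 ± 0.16 (log2, SE; limma adjusted p = 0.70). XTH19, which remodels xyloglucan in the wall, lay in the direction opposite to EXO, at 2.46, 2.28 and 1.60 in the canopy against 1.28, 1.1 and 1.3 in single plants. Its groups did not overlap, as was so for 17% of all probe sets in either direction, and it missed the threshold (limma adjusted p = 0.10). It passed without canopy replicate 3 (limma adjusted p = 0.018, difference 1.14), against limma adjusted p of 0.018 to 0.29 over the fits that left out 1 array. The median difference of the 3 genes was 0.20 and that of all probe sets -0.003 (log2).

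EXORDIUM family genes are also known for their link to carbon supply, and of the 25 listed genes of carbon starvation and trehalose metabolism 3 could be followed. All 3 had lower means in the canopy, with a median difference of -0.27 against -0.003 over all probe sets (log2), and 0 passed the limma test, with 1 (BZIP53) at an unadjusted p under 0.05. BZIP53, a transcription factor of the low-energy response, was at 4.59, 4.89 and 4.44 in the canopy, against 4.85, 5.17 and 5.18 in single plants. The groups overlapped by a single canopy array, and the difference of -0.43 ± 0.14 (log2, SE) had a limma adjusted p of 0.26. AKINBETA1, a regulatory subunit of the energy-sensing kinase SnRK1, was at 1.63, 1.38 and 1.15 in the canopy, in the array order of EXO, and at 1.58, 1.91 and 1.48 in single plants. Its difference was -0.27 ± 0.15 (log2, SE; limma adjusted p = 0.55). APL3, a subunit of the enzyme that makes the starch precursor, differed by -0.16 ± 0.13 (log2, SE; limma adjusted p = 0.71). These 3 genes have different roles, and their shared sign gives no measure of carbon supply. Of the 24 listed genes of cell division and organ growth, none could be followed by name.

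**Figure D4:**
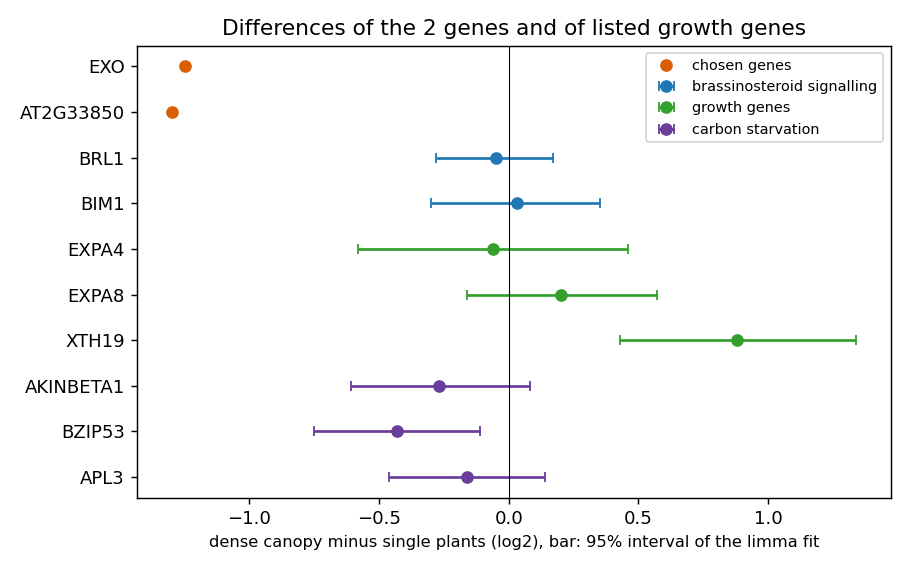
Difference between dense canopy and single plants (log2, horizontal axis) for EXO and AT2G33850, shown as points alone because both were chosen for it, and for the 8 listed genes with a named probe set, shown with the 95% interval of the limma fit. The pair lies at -1.25 and -1.30, and the listed genes lie between -0.43 (BZIP53) and 0.88 (XTH19), none of them past the adjusted threshold.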

How the data were processed

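The authors deposited RMA expression values, read here as log2 values; RMA and R 2.15.0 are named in the submitters' processing notes. Neither the chip definition nor the offset is given in the sources used here. As a rough check of the scale, the hybridisation controls gained 1.09 to 1.19 units for each doubling of their concentration, near 1 unit. Array medians were 1.28 to 1.32, which leaves the zero point of the scale unknown. No detection calls were used, and the number of arrays limits the precision.

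All 22746 probe sets other than the 64 Affymetrix controls were fitted with limma 3.58.1 (R 4.3.3; lmFit and eBayes, two-sided), without a filter or block, and called at a Benjamini-Hochberg adjusted p under 0.05. The fit was checked on simulated data. Names came from the platform annotation and the RefSeq table of TAIR10.1: 13513 probe sets had 1 gene, of which 13436 matched RefSeq, 503 had several and 8730 none. A gene was read from its probe set with the highest mean. RefSeq positions served only to find neighbours.

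Members and lists were chosen with earlier results of these data known. Named were both members, the loci of the EXL list, the 3 list genes with the smallest p (all where 4 or fewer were measured), 3 neighbours per side and the 5 genes of highest Pearson r.

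Same-numbered arrays are not stated to share a batch. Their deviations from the group means correlated at 0.00237, 0.0989 and -0.0640, so the numbers were not taken to pair the arrays. Alternatives were leaving out each array, a replicate block, only probe sets above the median level, equal medians, a second quantile normalization, robust moderation with an intensity trend, weighted arrays, other thresholds and the mean of a gene's probe sets. Scaling to the spiked controls and the settings for r were added after the data were seen.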

Additional observations from a re-analysis of the deposited data

How the results depend on the processing

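The differences of EXO and AT2G33850 kept their sign and size under the 12 alternatives to the limma fit: -1.38 to -1.11 and -1.43 to -1.19 (log2) with 1 array left out, directions that non-overlapping groups fix in advance, and -1.26 to -1.21 and -1.35 to -1.27 in the other 6. Each gene has 1 probe set, so averaging changed nothing. Relative to the spiked controls dap, thr and phe EXO moved to -1.03, and to -1.09 with lys included. Over all probe sets 97 were called higher and 57 lower. The replicate block gave 39 and 24, and it called none of the list genes or neighbours; an adjusted p under 0.01 gave 4 and 0, and under 0.1 gave 188 and 181. The intensity trend gave 151 higher and called 1 list gene higher, XTH19 (limma adjusted p = 0.043). Leaving out 1 array gave 16 to 94 higher and 1 to 65 lower, the fewest without single replicate 2, with 0 to 1 list genes higher and 0 lower. Signs turned only among genes that had not passed. With equal medians AT4G08880 was at 0.01, AT2G33760 at 0.02 and AT1G75880 at 0.02, and with a second quantile normalization AT4G08890 at -0.01. Leaving out 1 array, the differences ran from -0.04 to 0.10 for AT4G08890, -0.04 to 0.02 for AT4G08880, -0.02 to 0.32 for AT4G09040, -0.02 to 0.06 for MBAC1, -0.06 to 0.05 for AT2G33760, -0.12 to 0.01 for AT2G34020, -0.08 to 0.05 for AT1G75880, -0.11 to 0.01 for BRL1, -0.13 to 0.13 for BIM1 and -0.30 to 0.23 for EXPA4. The cause was not tested.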
